A study of Mus musculus with 60 samples.

Results

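The comparison described here set livers taken 32 h after partial hepatectomy (PHx, the surgical removal of part of the liver) against livers taken 32 h after a sham operation. Its members are the 6 libraries of these groups, 3 after PHx and 3 after sham, out of 60 in the series, and every gene measured in them was described. The animals of both groups were 8-week-old male C57BL/6 mice, each operated between 8 and 9 o'clock in the morning, with 3 mice per group. No allele or drug separates the groups, and the labels do not describe how much liver was removed or what the sham operation involved. PolyA RNA of whole liver was sequenced, so the values average over all cell types of the organ. The PHx and sham libraries of 28 and 32 h carry one series of library IDs, so that series does not separate the groups compared.

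After partial hepatectomy the remaining hepatocytes, which are normally at rest, re-enter the cell cycle. Cyclin D1 and its partner kinases release E2F transcription factors from the retinoblastoma proteins, E2F factors switch on the genes of DNA replication, and the later factors MYBL2 and FOXM1 switch on the genes of mitosis. Cytokines such as interleukin-6, made largely by the resident macrophages (Kupffer cells), act through STAT3 and also switch on the acute phase proteins that hepatocytes secrete. While they divide, hepatocytes go on supplying the body with bile acids, lipids, glucose and plasma proteins.

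Values are log2(value + 1) of an expression value whose unit is not stated in the files, so levels are compared between libraries for 1 gene and not between genes. Each difference is PHx minus sham on that log2 scale, given with its standard error (SE). A gene was called changed where limma gave a Benjamini-Hochberg adjusted p under 0.05, and "rose" and "fell" are used for called genes. On this scale the change of a gene with low values appears smaller than its fold. The labels give 3 mice per group. The p-values measure the spread between mice within all 16 groups of the morning course, pooled. They do not measure the spread of the 32 h mice alone. In whole liver, fewer cells of a type and less RNA per cell cannot be told apart.

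Of 12957 genes tested, 1998 were called, which is 15.4% of them. The calls were 1532 genes higher in PHx livers (11.8%) and 466 lower (3.60%). The first principal component, 55.81% of the variance among the 6 libraries, placed the 3 PHx libraries on one side and the 3 sham libraries on the other. The 10 most abundant genes took 19.9 to 20.6% of the summed values in PHx libraries and 25.6 to 26.7% in sham libraries. The median difference of all genes tested was 0.14, and after median-of-ratios scaling it was 0.00. With that scaling 767 genes were higher (5.92%) and 803 were lower (6.20%), so the excess of higher calls belongs to the values as deposited. The list counts below are to be read beside these shares, as deposited or scaled. Each of the 767 was also called higher as deposited, and 464 of the 466 lower genes were also called lower after scaling. The 3 PHx and 3 sham values did not overlap in 5052 genes (39.0%). Differences over 1 were reached by 497 of the genes called higher and 145 of those called lower.

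**Figure D1:**
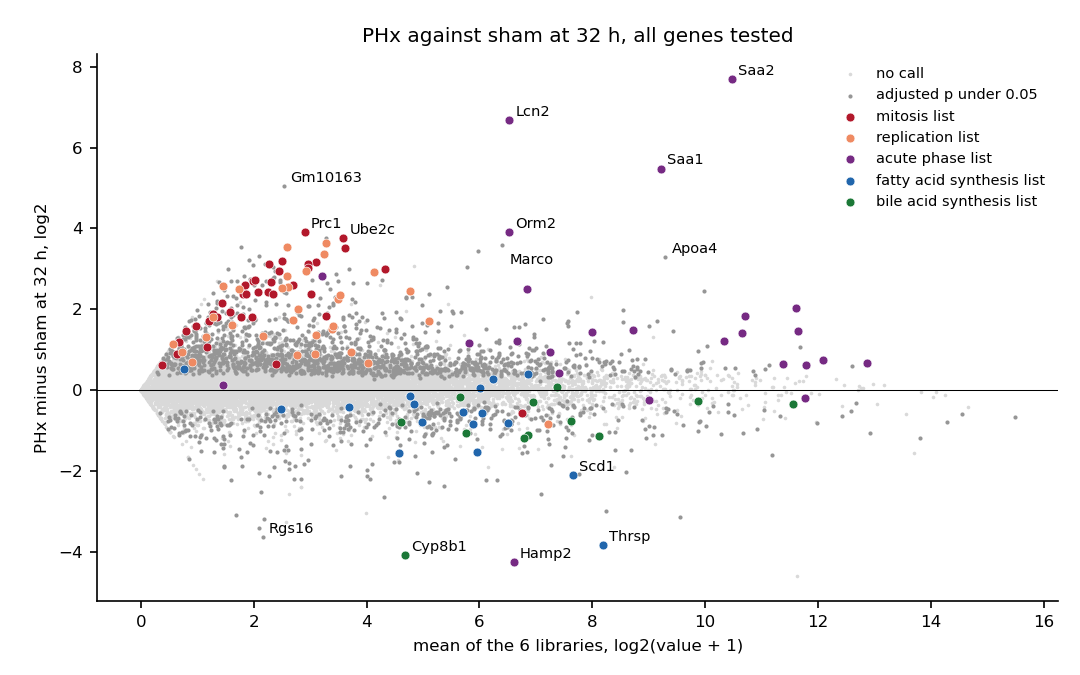
Each point is 1 gene, with its mean over the 6 libraries on the x axis (log2(value + 1)) and its PHx minus sham difference at 32 h on the y axis (log2), and colours mark 5 gene lists. The mitosis and replication lists lie mostly between 1 and 4, the acute phase genes Saa2, Lcn2 and Saa1 lie above 5, and Hamp2, Cyp8b1 and Thrsp lie near -4.

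Genes of cell cycle entry were higher in PHx livers. Ccnd1, which encodes cyclin D1, had 6.04, 5.39 and 5.45 in PHx livers, against 3.23, 2.90 and 2.59 in sham livers. The groups did not overlap, and the difference was 2.72 ± 0.29 (limma adjusted p 6.1e-08). Ccne1, encoding cyclin E1, which activates CDK2 at the start of S phase, had 5.29, 4.09 and 3.81 in PHx livers, against 1.59, 2.46 and 0.96 in sham livers, a difference of 2.73 ± 0.50 (limma adjusted p 0.00025). Ccna2, encoding cyclin A2 of S phase and G2, had 4.14, 2.90 and 2.99 in PHx livers, against 0.37, 0.70 and 0.74 in sham livers, a difference of 2.74 ± 0.62 (limma adjusted p 0.0024). All 3 PHx libraries lay above all 3 sham libraries for each of these cyclins, and PHx replicate 1 was the highest. In the list of G1 and S cyclins, kinases and inhibitors, 7 of 16 genes tested rose and 0 fell, with a median difference of 1.04, and 4 rose without PHx replicate 1. Wee1, the kinase that holds CDK1 inactive, rose by 1.03 ± 0.28 (limma adjusted p 0.0094). Without PHx replicate 1 the number of rises was 4, and Wee1 had no call at 0.75.

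The inhibitor Cdkn1a, which encodes p21 and is a target of p53, averaged 2.49 ± 0.65 in PHx livers and 0.88 ± 0.11 in sham livers (SD, n = 3 each), and its difference of 1.60 ± 0.59 did not pass the test (limma adjusted p 0.059). Among 14 p53 targets tested, 1 rose, the death receptor gene Fas at 0.81 ± 0.21 (limma adjusted p 0.0073), and 0 fell.

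The E2F and RB family showed 7 of 13 genes tested higher and 0 lower, with a median of 0.51. E2f1, an activator of replication genes, had 3.18, 2.40 and 2.38 in PHx livers, against 0.74, 0.70 and 0.82 in sham livers, a difference of 1.90 ± 0.42 (limma adjusted p 0.0018). Rbl1, which encodes the pocket protein p107 and is itself an E2F target, rose by 1.61 ± 0.26 (limma adjusted p 5.6e-05). E2f8, a repressor of the same targets, had 4.66, 4.18 and 4.24 in PHx livers, against 1.96, 1.89 and 3.09 in sham livers. Its difference of 2.05 ± 0.66 passed the test (limma adjusted p 0.029), but the call was lost without any of the 3 PHx libraries or without sham replicate 1 or 2, at 1.84 to 2.14. The count of the list was 2 without PHx replicate 1 and 4 without PHx replicate 3 or any 1 of the sham libraries.

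The replication list, which holds the licensing factors, the MCM helicase, the polymerases and the clamp proteins of the fork, rose almost as a whole. Of 31 genes tested, 27 were called higher and 0 lower, the median difference was 1.73, and for 30 of them all 3 PHx values lay above all 3 sham values, which holds for 28.6% of all genes tested. Leaving out any 1 library of 32 h left 22 to 26 genes called higher. Mcm6, a subunit of the helicase that unwinds DNA, had 5.78, 4.80 and 4.74 in PHx livers, against 1.20, 1.70 and 1.52 in sham livers, a difference of 3.64 ± 0.60 (limma adjusted p 6.1e-05). Its partner Mcm5 had 4.85, 4.18 and 4.02 in PHx livers, against 0.77, 0.77 and 0.91 in sham livers, a difference of 3.54 ± 0.58 (limma adjusted p 5.8e-05). Mcm3, another subunit, rose by 3.37 ± 0.47 and Mcm4 by 2.82 ± 0.36. The clamp gene Pcna, which is also used in repair, had 6.33, 5.87 and 5.67 in PHx livers, against 4.21, 4.23 and 4.31 in sham livers, and rose by 1.71 ± 0.32 (limma adjusted p 0.0003). The loading factor Cdc6 rose by 2.58 and the ligase Lig1, which joins Okazaki fragments, by 2.93. Mcm10, which helps to activate the helicase, was the 1 member with a difference below 0, at -0.85 ± 0.72 with no call. All 3 of its PHx values lay below all 3 sham values, as in 10.3% of all genes tested. The fit of the 6 libraries of 32 h alone called 26 genes of the list higher and 1 lower.

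Enzymes that supply deoxynucleotides were higher in part. Rrm1, the large subunit of ribonucleotide reductase, had 6.18, 5.83 and 5.52 in PHx livers, against 3.25, 3.65 and 3.76 in sham livers, a difference of 2.29 ± 0.49 (limma adjusted p 0.0012). Tk1, the thymidine kinase of S phase, had 4.40, 3.78 and 3.40 in PHx livers, against 3.38, 4.01 and 3.46 in sham livers, and its groups overlapped (0.24 ± 0.55, limma adjusted p 0.83). In the list, 5 of 12 genes tested rose and 0 fell (median 0.70). The number was 2 without PHx replicate 1 and without sham replicate 2 or 3, and 3 without PHx replicate 2 or sham replicate 1 and after scaling.

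Genes of DNA repair and of the replication checkpoint followed with 13 of 19 genes tested higher and 0 lower (median 1.37). Timeless, which stabilises the fork, had 5.43, 4.28 and 4.18 in PHx livers, against 1.43, 1.69 and 2.81 in sham livers, a difference of 2.65 ± 0.42 (limma adjusted p 4e-05). Uhrf1, which carries DNA methylation through replication, had 4.28, 3.07 and 3.22 in PHx livers, against 0.11, 0.44 and 0.38 in sham livers, a difference of 3.21 ± 0.51 (limma adjusted p 4.6e-05). Brca1, a recombination repair gene, rose by 1.80 ± 0.35 (limma adjusted p 0.0005). The list count was 8 without PHx replicate 1.

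The promoters of some of these genes are shown because their members moved together and because E2F factors are known to bind words of this kind. Promoter sequences are RefSeq, build GRCm38.p6, and run from 250 bases before the annotated start of a gene to 50 bases after it. The words TTTCCCGC and TTTGGCGC and their reverse complements GCGGGAAA and GCGCCAAA were searched on both strands. Words may overlap each other in palindromic stretches, and a gene counted once. Of the 27 replication genes that rose, 22 matched a promoter, and 10 of the 22 held at least 1 word (45.5%), against 486 of all 27025 genes with a promoter (1.80%). These 27025 genes, used again for the mitosis genes below, were not limited to the genes tested here. Capitals mark the words in the following promoters of licensing and helicase genes, each 5′ to 3′ on the strand of its gene. The promoter of Ccne1, described above, held none of these words in this window.
Mcm3 promoter, GRCm38.p6 chr1:20820263-20820562, minus strand: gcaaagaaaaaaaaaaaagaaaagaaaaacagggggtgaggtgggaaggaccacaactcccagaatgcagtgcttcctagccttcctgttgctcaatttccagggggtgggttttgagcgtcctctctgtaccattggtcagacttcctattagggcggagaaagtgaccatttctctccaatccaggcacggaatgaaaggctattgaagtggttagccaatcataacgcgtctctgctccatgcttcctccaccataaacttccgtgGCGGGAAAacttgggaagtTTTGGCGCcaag
Mcm5 promoter, GRCm38.p6 chr8:75109259-75109558, plus strand: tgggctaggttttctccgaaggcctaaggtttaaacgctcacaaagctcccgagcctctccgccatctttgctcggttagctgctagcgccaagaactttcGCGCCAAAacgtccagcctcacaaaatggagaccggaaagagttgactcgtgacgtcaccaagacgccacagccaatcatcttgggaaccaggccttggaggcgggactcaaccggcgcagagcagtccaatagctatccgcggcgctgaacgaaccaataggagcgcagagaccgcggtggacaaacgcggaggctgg
Mcm6 promoter, GRCm38.p6 chr1:128359656-128359955, minus strand: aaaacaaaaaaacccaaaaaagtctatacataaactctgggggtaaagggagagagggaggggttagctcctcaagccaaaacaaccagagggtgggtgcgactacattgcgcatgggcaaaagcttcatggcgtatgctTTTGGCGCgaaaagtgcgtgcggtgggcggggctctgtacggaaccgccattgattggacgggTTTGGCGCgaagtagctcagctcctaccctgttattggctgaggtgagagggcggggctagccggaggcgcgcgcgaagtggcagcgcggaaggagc
Cdc6 promoter, GRCm38.p6 chr11:98907901-98908200, plus strand: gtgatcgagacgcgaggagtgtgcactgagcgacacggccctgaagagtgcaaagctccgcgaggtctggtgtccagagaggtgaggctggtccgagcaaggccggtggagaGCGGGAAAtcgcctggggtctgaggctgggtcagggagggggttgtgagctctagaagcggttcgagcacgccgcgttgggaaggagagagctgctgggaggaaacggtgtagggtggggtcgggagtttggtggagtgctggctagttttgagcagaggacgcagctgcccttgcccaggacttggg
Mcm3 and Mcm6 each held 2 words, and Mcm5 and Cdc6 each held 1. A word is a match of letters and not a measured binding site. Only list members that rose were counted, here and for the mitosis genes below, from lists chosen with earlier results known. A role of the factors that bind these words was not tested.

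Genes of G2 and mitosis rose almost as a whole too. Of 38 genes tested, 35 rose and 1 fell, the median difference was 2.38, and in 37 of the 38 all 3 PHx values lay above all 3 sham values (28.6% of all genes tested). In the other, Pttg1, all 3 lay below, as in 10.3% of all genes tested. Ccnb1, encoding cyclin B1, had 4.62, 3.29 and 3.58 in PHx livers, against 0.24, 0.65 and 1.23 in sham livers, a difference of 3.12 ± 0.62 (limma adjusted p 0.00061). Its kinase Cdk1 had 5.38, 4.32 and 4.37 in PHx livers, against 1.53, 1.16 and 1.88 in sham livers, a difference of 3.17 ± 0.80 (limma adjusted p 0.006). Sham livers thus held low but measurable values, while each PHx liver was well above them. Prc1, which bundles the microtubules of the central spindle, had 5.74, 4.58 and 4.25 in PHx livers, against 0.43, 1.22 and 1.21 in sham livers, a difference of 3.90 ± 0.78 (limma adjusted p 0.00066). Ube2c, the ubiquitin-conjugating enzyme that works with the anaphase-promoting complex, had 6.43, 5.04 and 4.94 in PHx livers, against 1.08, 1.51 and 2.52 in sham livers, a difference of 3.76 ± 0.85 (limma adjusted p 0.0023). Knstrn, a kinetochore and spindle protein outside the list, had 6.10, 4.75 and 4.65 in PHx livers, against 0.97, 1.35 and 1.89 in sham livers, a difference of 3.76 ± 0.71 (limma adjusted p 0.00033). These 3 were among the 8 largest rises of all genes under the naming rule.

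The rises reached from chromosome structure to the end of division. Top2a, the topoisomerase that untangles sister DNA, rose by 3.20 ± 0.74, and Mki67, which encodes the Ki-67 antigen of dividing cells, by 2.60 ± 0.64. Plk1, a mitotic kinase, had 4.11, 2.95 and 2.97 in PHx livers, against 0.48, 0.72 and 0.71 in sham livers, and rose by 2.70 ± 0.55 (limma adjusted p 0.00087). Cdc20, the activator of the anaphase-promoting complex, rose by 2.94 ± 0.67, Aurkb of the chromosomal passenger complex by 2.37 ± 0.53, and Kif23, a motor of cytokinesis, by 2.43 ± 0.48. Foxm1, the transcription factor named above, had 2.94, 2.78 and 1.91 in PHx livers, against 0.67, 0.62 and 0.55 in sham livers, and rose by 1.94 ± 0.50 (limma adjusted p 0.0071). Mybl2 was in the table and below the filter on low values, and it was not tested. Pttg1, the securin gene, was the 1 member that fell, by 0.56 ± 0.18 (limma adjusted p 0.028), with 6.63, 6.25 and 6.52 in PHx livers, against 7.02, 7.09 and 6.98 in sham livers. Its call held without PHx replicate 1 and was lost without any 1 of the other 5 libraries, at -0.59 to -0.45.

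Tubulins, the subunits of microtubules and so of the spindle, rose in 9 of 10 genes tested, with 0 lower and a median of 1.43. Tubb2a had 6.87, 5.95 and 6.02 in PHx livers, against 3.73, 4.46 and 3.55 in sham livers, a difference of 2.37 ± 0.38 (limma adjusted p 4.2e-05). Tubb6 rose by 2.11 ± 0.32 and Tubb5 by 1.66 ± 0.26. Tubulin genes are near copies of each other, so reads could have been split between them in the authors' counting.

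**Figure D2:**
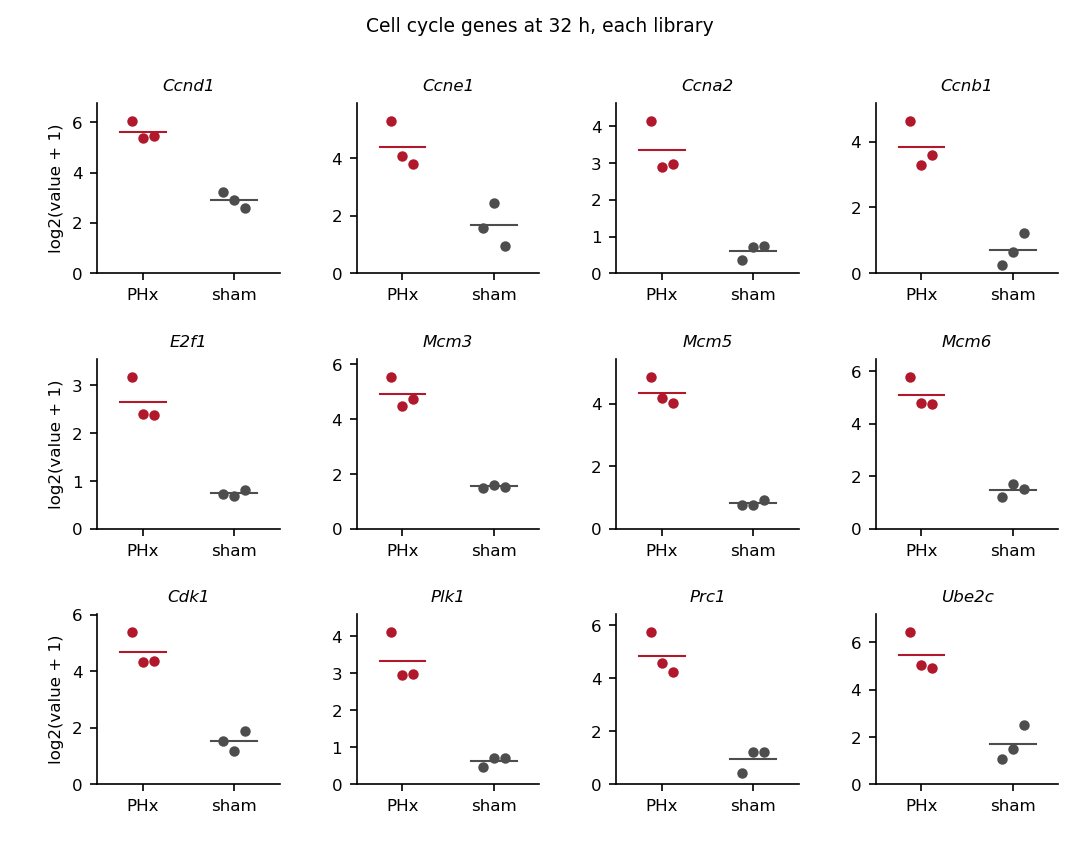
Values of 12 cell cycle genes at 32 h, log2(value + 1) on the y axis of each panel, with 1 point per library (3 PHx left in red, 3 sham right in grey) and a line at the group mean. The groups do not overlap in any panel, and the highest of the 3 PHx points is replicate 1, drawn leftmost, in each of them.

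One PHx library stood above the other 2 in these groups. PHx replicate 1 was the highest of the 3 PHx libraries for 36 of the 38 mitosis genes, 27 of the 31 replication genes and 14 of the 16 cyclin genes. The median level of the mitosis list was 3.92, 3.03 and 2.87 in the PHx livers, against 0.56, 0.69 and 1.14 in the sham livers. Without PHx replicate 1, 28 mitosis genes were still called higher. The acute phase genes had another order, with PHx replicate 3 highest for 23 of 25 genes.

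At 28 h the same lists were more uneven between PHx livers. The median level of the mitosis list was 4.26, 0.21 and 2.69 in the PHx livers of 28 h, and PHx replicate 2 of that time lay below all of the PHx livers of 32 h. The fit shares its estimate of the spread over all times, so that library bears on the calls at 32 h. It stood apart in other lists too, with medians of 5.92, 3.37 and 6.27 in PHx livers of 28 h for the growth hormone list. For the neutrophil and monocyte list it was the highest, at 0.74, 3.16 and 1.11. In a fit of the 12 libraries of 28 and 32 h, 3 mitosis genes were called higher at 32 h and 1 lower, and without PHx 28 h replicate 2 that fit called 35 higher and 1 lower. Over all genes tested that fit called 1454 at 32 h, and 2656 without PHx 28 h replicate 2, a setting chosen after seeing the data. The fit of the 6 libraries of 32 h alone called 35 mitosis genes higher and 1 lower.

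The mitotic promoters differ in some of their words from those of the replication genes. The word TTTGAA, known as the cell cycle genes homology region, was searched on both strands with its reverse complement TTCAAA. Of the 35 mitosis genes that rose, 29 matched a promoter, and 21 of the 29 held at least 1 such word (72.4%), against 5466 of 27025 genes (20.2%). None of the 29 held an E2F word of the kind above, and 5 of the 22 replication promoters held TTTGAA (22.7%). The short word CCAAT or its reverse complement was in 22 of the 29 mitosis promoters (75.9%) and in 41.1% of all. It was also in 13 of the 22 replication promoters (59.1%). Capitals mark TTTGAA in the promoters of 4 mitosis genes, picked from genes with values above whose promoters held the word. No capital overlaps another. Prc1 had 2 promoters, and one with the most words was taken.
Cdk1 promoter, GRCm38.p6 chr10:69352863-69353162, minus strand: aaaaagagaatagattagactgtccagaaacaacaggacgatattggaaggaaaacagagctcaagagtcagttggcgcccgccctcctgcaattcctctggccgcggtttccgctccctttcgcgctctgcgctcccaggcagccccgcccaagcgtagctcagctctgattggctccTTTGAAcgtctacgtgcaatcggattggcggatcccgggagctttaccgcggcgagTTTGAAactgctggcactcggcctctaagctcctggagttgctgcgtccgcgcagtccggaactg
Plk1 promoter, GRCm38.p6 chr7:122159185-122159484, plus strand: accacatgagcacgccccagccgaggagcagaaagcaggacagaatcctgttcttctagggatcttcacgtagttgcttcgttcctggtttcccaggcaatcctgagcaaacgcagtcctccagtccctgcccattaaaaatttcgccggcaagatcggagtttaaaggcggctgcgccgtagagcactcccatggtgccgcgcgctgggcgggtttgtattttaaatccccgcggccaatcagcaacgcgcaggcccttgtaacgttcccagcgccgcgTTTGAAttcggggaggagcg
Cdc20 promoter, GRCm38.p6 chr4:118437294-118437593, minus strand: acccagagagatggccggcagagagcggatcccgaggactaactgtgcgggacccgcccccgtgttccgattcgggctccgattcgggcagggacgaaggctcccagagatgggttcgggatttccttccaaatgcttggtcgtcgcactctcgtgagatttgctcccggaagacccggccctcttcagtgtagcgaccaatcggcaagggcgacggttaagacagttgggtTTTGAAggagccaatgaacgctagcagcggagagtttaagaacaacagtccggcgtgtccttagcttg
Prc1 promoter, GRCm38.p6 chr7:80294201-80294500, plus strand: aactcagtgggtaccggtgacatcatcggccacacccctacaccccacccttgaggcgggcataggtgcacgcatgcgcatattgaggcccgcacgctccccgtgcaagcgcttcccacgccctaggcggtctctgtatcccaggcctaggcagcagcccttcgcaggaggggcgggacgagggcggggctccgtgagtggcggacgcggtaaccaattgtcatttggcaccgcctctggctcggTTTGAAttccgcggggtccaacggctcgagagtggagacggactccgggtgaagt
Cdk1 held the word at 2 places and the other 3 at 1 each. The promoters of Ccnb1 and of Knstrn, which is outside the list, held none in this window.

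Some genes of growth signals and protein turnover rose, and their counts are set against the 11.8% of all genes that were called higher. Of the immediate early genes, which answer growth signals within the first hour, 3 of 15 tested rose and 0 fell (median 0.75). Fosl2, an AP-1 subunit, had 1.31, 1.94 and 1.39 in PHx livers, against 0.44, 0.44 and 0.50 in sham livers, a difference of 1.08 ± 0.17 (limma adjusted p 4.2e-05), and it was the 1 call left without PHx replicate 3 or without sham replicate 1. Myc, the growth regulator, had 2.13, 2.65 and 3.45 in PHx livers, against 1.08, 1.26 and 3.33 in sham livers, and did not pass the test (0.85 ± 0.64, limma adjusted p 0.41). Ribosome biogenesis showed 4 of 24 genes higher and 0 lower with a median of 0.28, with 0 calls without PHx replicate 1 or sham replicate 2, 2 without sham replicate 1 or 3, and 1 after scaling. The proteasome list had 8 of 25 higher and 0 lower at a median of 0.27, against 0.14 for all genes, with 24 of 25 differences above 0. The calls numbered 3 without PHx replicate 1 or sham replicate 3, and 2 after scaling, where the median of the list was 0.08. Psmc3, an ATPase of the regulatory particle, rose by 0.60 ± 0.12 in that list (limma adjusted p 0.00082).

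Chaperones of the endoplasmic reticulum were higher in 7 of 20 genes tested and lower in 0 (median 0.54). Calr, the calcium-binding chaperone calreticulin, had 11.75, 11.70 and 11.78 in PHx livers, against 10.95, 11.34 and 10.84 in sham livers, and rose by 0.70 ± 0.16 (limma adjusted p 0.0021). The count was 3 after scaling, and it was 4 without PHx replicate 2 or sham replicate 1, 11 without sham replicate 2 and 3 without sham replicate 3. Of the targets of ATF4, the factor of amino acid stress, 5 of 24 rose and 1 fell. Mthfd2, the mitochondrial folate enzyme, rose by 1.72 ± 0.36 (limma adjusted p 0.0011), and Trib3 fell by 0.97 ± 0.26 (limma adjusted p 0.008). The number of rises was 3 without any 1 PHx library or sham replicate 1 and after scaling, and 2 without sham replicate 3. Txnrd1, the thioredoxin reductase of the NRF2 response, rose by 0.86 ± 0.18 (limma adjusted p 0.00083), among 3 of 13 genes of its list, which were 1 without sham replicate 3 and 1 after scaling. Hsp90aa1, a cytosolic chaperone, was the 1 of 14 heat shock genes that rose, by 1.16 ± 0.26 (limma adjusted p 0.0022).

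**Figure D3:**
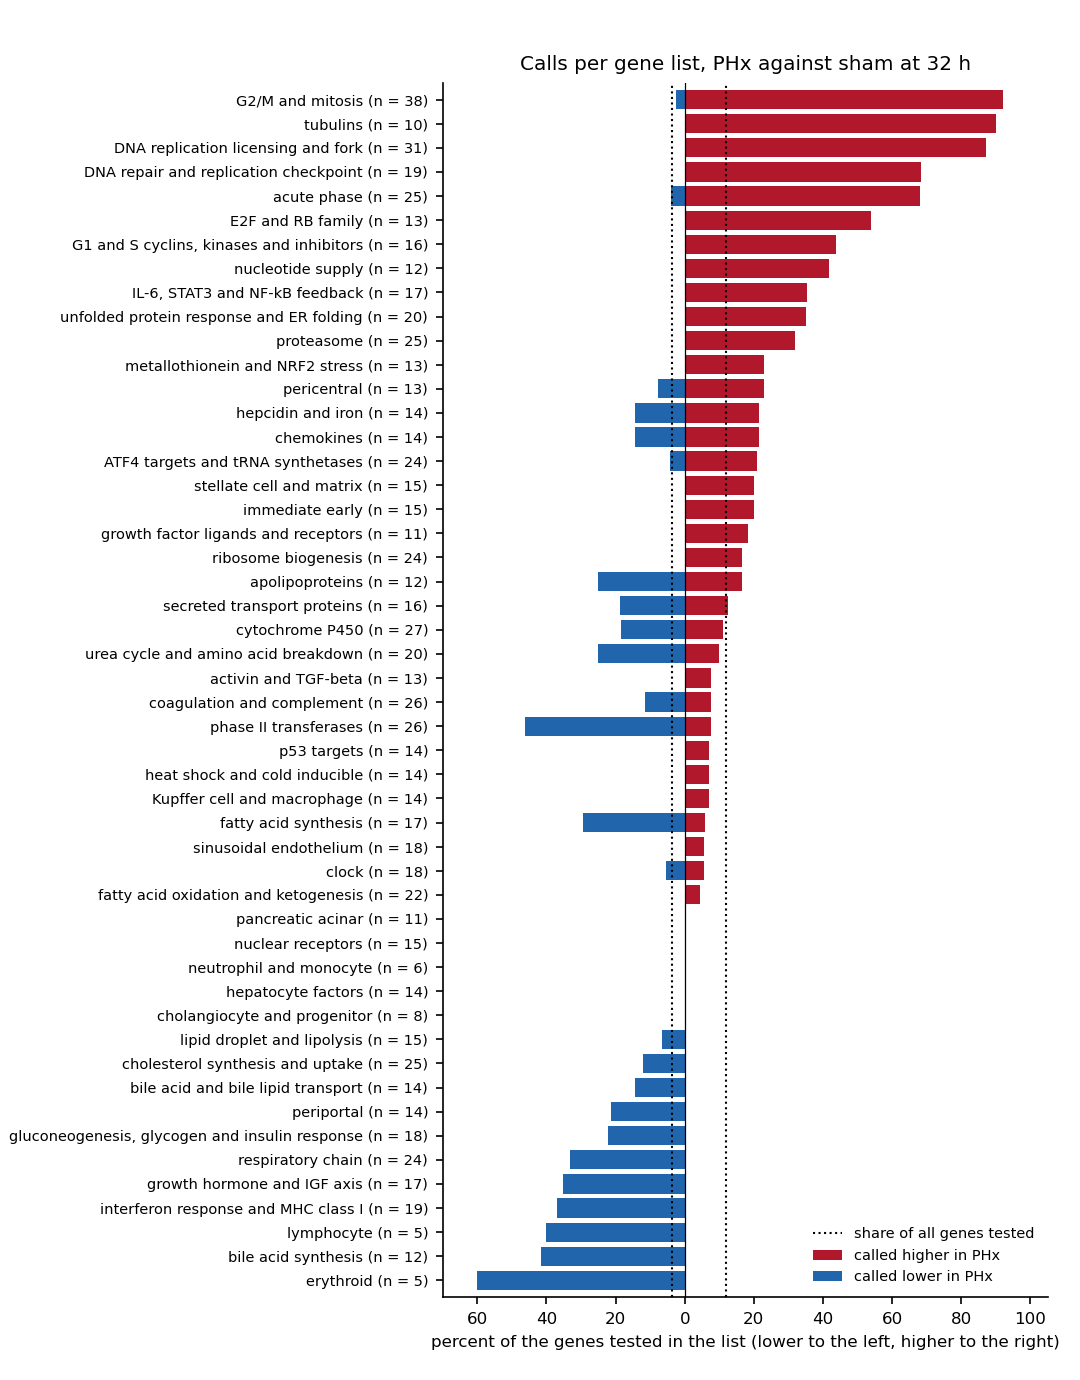
Bars give the percent of tested genes called higher in PHx livers (red, to the right) and lower (blue, to the left) in each of the 50 gene lists, with the number tested beside each name, and dotted lines mark the shares of all genes tested (11.8% higher and 3.60% lower). The mitosis, tubulin, replication, repair and acute phase lists reach furthest to the right, and the erythroid, phase II, bile acid synthesis, lymphocyte and interferon lists reach furthest to the left.

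The largest rises belonged to the acute phase response, the set of plasma proteins that the liver makes in inflammation. Saa2, a serum amyloid A protein, had 14.47, 13.89 and 14.61 in PHx livers, against 6.37, 6.43 and 7.06 in sham livers, a difference of 7.70 ± 0.63 (limma adjusted p 4e-10). Lcn2, which encodes the iron-siderophore binding protein lipocalin 2, had 9.57, 9.62 and 10.41 in PHx livers, against 3.11, 3.20 and 3.22 in sham livers, a difference of 6.69 ± 0.62 (limma adjusted p 2.8e-09). Saa1 had 11.96, 11.61 and 12.28 in PHx livers, against 6.50, 6.80 and 6.10 in sham livers, a difference of 5.48 ± 0.63 (limma adjusted p 1.7e-07). The PHx libraries of these genes lay far above the sham libraries. Orm2, an orosomucoid of plasma, had 7.25, 8.68 and 9.48 in PHx livers, against 4.24, 4.34 and 5.11 in sham livers, a difference of 3.90 ± 0.51 (limma adjusted p 2e-06). Orm1 rose by 1.84 ± 0.20, the haptoglobin gene Hp, whose product binds free haemoglobin, by 2.04 ± 0.23, and Apcs, the serum amyloid P component, by 2.50 ± 0.40. In all, 17 of 25 genes tested rose and 1 fell (median 1.21), and 14 to 17 rose with any 1 library left out. Saa1 and Saa2, and Orm1 and Orm2, are near copies of each other, so the split of reads within each pair is uncertain.

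The 1 member that fell was Hamp2, a copy of the hepcidin gene, which had 3.65, 3.88 and 5.89 in PHx livers, against 8.38, 9.02 and 8.80 in sham livers. Its difference of -4.26 ± 0.66 was the largest fall of all genes called (limma adjusted p 2.8e-05). Hamp itself, which encodes the hormone that limits iron export into blood, had 12.50, 13.53 and 13.58 in PHx livers, against 12.66, 11.87 and 13.10 in sham livers, and did not pass the test (0.66 ± 0.46, limma adjusted p 0.36). Both are near copies, and reads may have been split between them. Id1, a target of the BMP pathway that drives hepcidin, rose by 1.86 ± 0.44 (limma adjusted p 0.0034).

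Some genes around interleukin-6 and STAT3 were higher, with 6 of 17 tested higher and 0 lower (median 0.50). The rises numbered 2 without PHx replicate 3 and 3 after scaling. Socs3, the feedback inhibitor of STAT3 signalling, had 3.78, 4.46 and 5.57 in PHx livers, against 2.18, 1.90 and 2.21 in sham livers, a difference of 2.51 ± 0.42 (limma adjusted p 8.7e-05). Stat3 had 4.94, 5.99 and 5.57 in PHx livers, against 4.31, 4.24 and 4.46 in sham livers, a difference of 1.16 ± 0.25 (limma adjusted p 0.0014). C3, the central complement component, rose by 1.07 ± 0.19 (limma adjusted p 0.00017), whereas Proc, encoding the anticoagulant protein C, fell by 0.58 ± 0.11 (limma adjusted p 0.00041). Across coagulation and complement, 2 of 26 rose and 3 fell, against 11.8% and 3.60% of all genes tested. After scaling 1 rose and 9 fell, against 5.92% and 6.20%. With 1 library left out, 1 rose in each fit except that without PHx replicate 1, where 2 did, and 1 fell in each fit except that without sham replicate 3, where 2 did.

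Some genes of interferon response and of MHC class I antigen display fell. Of 19 tested, 0 rose and 7 fell, with a median of -0.62. H2-K1, a classical MHC class I heavy chain, had 9.17, 9.17 and 9.19 in PHx livers, against 9.93, 10.06 and 10.13 in sham livers, a difference of -0.86 ± 0.11 (limma adjusted p 8.3e-07). Its light chain B2m fell by 0.62 ± 0.14 (limma adjusted p 0.0026). Ifit1, an interferon-induced antiviral gene, had 1.57, 1.50 and 1.58 in PHx livers, against 2.62, 3.43 and 3.08 in sham livers, a difference of -1.50 ± 0.39 (limma adjusted p 0.0075). The list count was 4 without PHx replicate 1 and 3 without sham replicate 2 or 3. Cxcl9, the interferon-gamma induced chemokine that attracts T cells, had 1.15, 1.00 and 1.06 in PHx livers, against 3.11, 2.55 and 3.71 in sham livers, a difference of -2.05 ± 0.30 (limma adjusted p 1.2e-05). Ccl6, a chemokine of myeloid cells in mice, rose by 1.94 ± 0.32 (limma adjusted p 5.8e-05). The chemokine list was mixed, with 3 of 14 tested higher and 2 lower (median 0.10), against 11.8% and 3.60% of all genes tested. After scaling 1 was higher and 2 lower, against 5.92% and 6.20%. Of the lymphocyte markers, 0 of 5 rose and 2 fell, and their summed linear value was 1.19 to 2.38 in PHx livers and 3.70 to 9.05 in sham livers. Cd4 fell by 0.87 ± 0.17 (limma adjusted p 0.00063), and it was the 1 lymphocyte call left without PHx replicate 1 or 3 or sham replicate 3. The part of lymphocytes in the values of the interferon list was not tested.

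Some bile acid genes fell in PHx livers, with 0 of 12 synthesis genes tested higher and 5 lower (median -0.77), a count that was the same without any 1 library. Cyp8b1, the sterol 12-alpha-hydroxylase that sets the share of cholic acid, had 2.11, 3.28 and 2.49 in PHx livers, against 6.27, 6.76 and 7.12 in sham livers, a difference of -4.09 ± 0.80 (limma adjusted p 0.0005). Cyp27a1, which opens the acidic route of synthesis, had 7.28, 7.77 and 7.62 in PHx livers, against 8.76, 8.67 and 8.63 in sham livers, a difference of -1.13 ± 0.18 (limma adjusted p 4e-05). Slc27a5, the ligase that couples bile acids to coenzyme A before they are conjugated, had 6.02, 6.35 and 6.18 in PHx livers, against 7.33, 7.36 and 7.44 in sham livers, a difference of -1.19 ± 0.13 (limma adjusted p 5.2e-08). Cyp7a1, the rate-limiting enzyme of the classical route, had 4.31, 4.31 and 4.05 in PHx livers, against 5.36, 4.89 and 4.78 in sham livers. Its groups did not overlap, but the difference of -0.78 ± 0.89, whose SE draws on the spread in all 16 groups of the course, did not pass the test (limma adjusted p 0.62). Among 14 transporters of bile acids and bile lipids, 0 rose and 2 fell, with 1 fall without PHx replicate 1 or 3 or sham replicate 2 or 3. Slc10a1, the uptake carrier NTCP, had 6.83, 6.99 and 6.98 in PHx livers, against 8.13, 8.19 and 8.06 in sham livers, a difference of -1.20 ± 0.24 (limma adjusted p 0.00061).

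Enzymes of drug and steroid metabolism fell in part. In the phase II list, 2 of 26 genes tested rose and 12 fell (median -0.59). Ugt2b1, a glucuronosyltransferase, had 6.91, 6.48 and 6.58 in PHx livers, against 8.40, 8.26 and 8.21 in sham livers, a difference of -1.64 ± 0.27 (limma adjusted p 8.2e-05). Sult1b1, a sulfotransferase, fell by 0.90 ± 0.16, and the glutathione transferase gene Gstm6 by 0.84 ± 0.17. Without PHx replicate 1 the falls of the phase II list numbered 6. Its rises numbered 1 without PHx replicate 3 or sham replicate 1, and 1 after scaling. Of 27 cytochrome P450 genes, 3 rose and 5 fell as deposited, and 1 rose and 8 fell after scaling. Of all genes tested, 11.8% were higher and 3.60% lower as deposited, and 5.92% and 6.20% after scaling. Cyp2f2, a P450 of periportal hepatocytes, had 7.68, 7.67 and 7.64 in PHx livers, against 9.22, 9.22 and 9.01 in sham livers, a difference of -1.48 ± 0.27 (limma adjusted p 0.00028). Cyp2a5, a pericentral coumarin hydroxylase, fell by 2.11 ± 0.49 and Cyp2d9, a male-biased steroid hydroxylase, by 1.22 ± 0.24. The 3 that rose included Cyp4a14, a fatty acid omega-hydroxylase, at 3.43. The P450 rises numbered 1 without PHx replicate 2 or 3 or sham replicate 1 or 2.

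Some lipid synthesis genes fell. Thrsp, the thyroid hormone responsive protein that promotes fatty acid synthesis, had 6.65, 5.83 and 6.31 in PHx livers, against 10.62, 10.44 and 9.27 in sham livers, a difference of -3.84 ± 0.44 (limma adjusted p 1.8e-07). Scd1, the stearoyl-CoA desaturase, had 6.61, 6.70 and 6.50 in PHx livers, against 8.95, 8.94 and 8.23 in sham livers, a difference of -2.11 ± 0.32 (limma adjusted p 2.6e-05). Dgat2, which makes triglyceride, fell by 0.82 ± 0.14 (limma adjusted p 0.00014). Fasn, the fatty acid synthase, had 3.37, 3.67 and 4.33 in PHx livers, against 6.29, 5.68 and 4.11 in sham livers, so the groups overlapped. Its difference of -1.57 ± 0.40 was called (limma adjusted p 0.0059), and without sham replicate 1 it was -1.10 with no call. Of 17 genes of fatty acid synthesis, 1 rose, in no fit with 1 library left out, and 5 fell (median -0.55). Srebf1, encoding the factor that drives the pathway, gave -0.83 ± 0.56 with no call (limma adjusted p 0.35). Cholesterol synthesis and uptake had 0 of 25 higher and 3 lower, with a median of -0.78 and 22 of 25 differences below 0. Of all genes tested, 3.60% were called lower. Tm7sf2, a sterol reductase, was the 1 call left without PHx replicate 1 or 2 or sham replicate 1 or 2, and it fell by 0.78 ± 0.16 (limma adjusted p 0.00084).

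Among apolipoproteins, Apoa4, which is carried on triglyceride-rich particles, had 10.70, 11.16 and 10.95 in PHx livers, against 7.43, 7.97 and 7.55 in sham livers, a difference of 3.28 ± 0.47 (limma adjusted p 1.1e-05). Apoe, the ligand for remnant uptake, had 15.15, 15.19 and 15.10 in PHx livers, against 15.74, 15.88 and 15.84 in sham livers, a difference of -0.67 ± 0.10 (limma adjusted p 8e-06). Apoc1 fell by 0.79 ± 0.15 (limma adjusted p 0.00053). Fatty acid oxidation genes showed 1 of 22 higher, Acadl, a long-chain dehydrogenase, at 0.64 ± 0.15 (limma adjusted p 0.0035), and 0 lower.

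Carbohydrate and nitrogen metabolism held a few clear falls. Pygl, the liver glycogen phosphorylase, had 6.89, 6.54 and 6.39 in PHx livers, against 7.81, 7.87 and 7.79 in sham livers, a difference of -1.22 ± 0.21 (limma adjusted p 0.00014). Gckr, the regulator of glucokinase, fell by 0.54 ± 0.15 (limma adjusted p 0.01). Pck1, the control enzyme of gluconeogenesis, averaged 10.48 ± 0.06 in PHx livers and 9.76 ± 0.08 in sham livers (SD, n = 3 each), with no call (0.72 ± 0.34, limma adjusted p 0.16). Its groups did not overlap, and its SE draws on the spread in all 16 groups of the course. In the list of gluconeogenesis, glycogen and insulin response 0 of 18 rose and 4 fell, with a median of 0.15 that was -0.01 after scaling. Differences above 0 numbered 11 of 18. The fit of the 6 libraries of 32 h called 3 higher and 5 lower, and that of the 12 libraries of 28 and 32 h called 3 higher and 4 lower. Otc, the urea cycle enzyme ornithine transcarbamylase, had 6.66, 6.72 and 6.68 in PHx livers, against 7.67, 7.64 and 7.77 in sham livers, a difference of -1.01 ± 0.17 (limma adjusted p 6.1e-05). Tdo2, which opens the breakdown of tryptophan, fell by 1.18 ± 0.23 (limma adjusted p 0.00055), and Gls2, the liver glutaminase, by 0.76 ± 0.20 (limma adjusted p 0.0074). Of 20 urea and amino acid genes, 5 fell and 2 rose, and after scaling 7 fell and 0 rose. The rises numbered 0 without PHx replicate 1 and 1 without PHx replicate 2 or 3 or sham replicate 1 or 3.

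Some subunits of the respiratory chain were lower. Of 24 tested, 0 rose and 8 fell (median -0.27), and 16 fell after scaling. Sdhb, a subunit of succinate dehydrogenase, had 7.67, 7.30 and 7.43 in PHx livers, against 8.07, 8.13 and 8.06 in sham livers, a difference of -0.62 ± 0.13 (limma adjusted p 0.00082). The falls numbered 5, 4 and 2 without PHx replicate 1, 2 and 3, and 2 and 3 without sham replicate 2 and 3.

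Genes of growth hormone action, which in male mice sustains the major urinary proteins and a set of sex-biased enzymes, were lower in 6 of 17 tested and higher in 0 (median -0.50). With any 1 library of 32 h left out, 4 to 5 fell. Mup3, a major urinary protein, had 13.20, 13.26 and 13.17 in PHx livers, against 14.56, 14.20 and 14.45 in sham livers, a difference of -1.19 ± 0.14 (limma adjusted p 2.2e-07). Igfbp3, a carrier of IGF-1 in plasma, fell by 1.45 ± 0.36 (limma adjusted p 0.0059), and Cyp4a12a, a male-specific P450, by 1.54 ± 0.33 (limma adjusted p 0.0015). Mup genes are near copies, and their values share that uncertainty. Igfbp1, a stress-induced binding protein, had 4.29, 6.16 and 5.04 in PHx livers, against 3.86, 4.43 and 3.25 in sham livers, with overlap and no call (limma adjusted p 0.33). Car3, the muscle-type carbonic anhydrase that mouse liver makes in quantity, had 8.34, 8.16 and 7.43 in PHx livers, against 11.16, 10.89 and 11.32 in sham livers, a difference of -3.14 ± 0.62 (limma adjusted p 0.00053).

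The transcription factor genes of hepatocyte identity gave no call as deposited. Of 14 hepatocyte factors and 15 nuclear receptors tested, 0 were called in either direction, at medians of 0.34 and 0.30. After scaling, 1 gene of each list was called lower. Hnf4a, the master regulator of hepatocyte genes, had 6.49, 6.77 and 6.55 in PHx livers, against 6.42, 6.31 and 6.17 in sham livers (0.31 ± 0.12, limma adjusted p 0.09). Cebpa, a factor of the resting hepatocyte, had 5.86, 5.89 and 5.77 in PHx livers, against 6.52, 6.47 and 6.23 in sham livers, a difference of -0.56 ± 0.22 with no call as deposited (limma adjusted p 0.08) and a call after scaling at -0.74 (limma adjusted p 0.017). Alb, encoding albumin, had 14.73, 14.40 and 14.21 in PHx livers, against 14.78, 15.04 and 14.74 in sham livers. Its difference of -0.41 ± 0.15 was not called as deposited (limma adjusted p 0.07) and was called after scaling at -0.59 (limma adjusted p 0.022). Of 16 secreted transport proteins tested, 2 rose and 3 fell, and after scaling 1 rose and 8 fell. With 1 library left out, 1 to 2 rose and 2 to 4 fell. Serpina1c fell by 0.64 ± 0.13 (limma adjusted p 0.0012) and Apoh by 0.55 ± 0.12 (limma adjusted p 0.0018), while Trf rose by 0.60 ± 0.12 (limma adjusted p 0.00059). Afp, the fetal albumin-like protein, gave 0.60 ± 0.33 (limma adjusted p 0.22). Among markers of the zones of the liver lobule, 3 of 13 pericentral genes rose and 1 fell, and 0 of 14 periportal genes rose and 3 fell. The shares of all genes tested were 11.8% higher and 3.60% lower. After scaling, 2 pericentral genes rose and 2 fell, and 0 periportal genes rose and 6 fell. Lhpp, a phosphatase on the pericentral list, rose by 1.08 ± 0.30 (limma adjusted p 0.011).

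Of 18 clock genes tested, 1 rose and 1 fell, against 15.4% of all genes called. The 1 that fell was Cry2, by 0.62 ± 0.18 (limma adjusted p 0.018). The falls numbered 0 without PHx replicate 1 or 3 or sham replicate 2, and 2 without PHx replicate 2. Nfil3, a repressor of the D-box genes, had 3.12, 3.50 and 3.49 in PHx livers, against 1.91, 2.25 and 2.37 in sham livers, a difference of 1.19 ± 0.26 (limma adjusted p 0.0017). Dbp, an activator at the same sites, had 6.70, 6.38 and 6.02 in PHx livers, against 7.29, 7.32 and 7.30 in sham livers, and did not pass the test (-0.94 ± 0.53, limma adjusted p 0.24). Arntl gave 0.46 ± 0.31, Per1 0.21 ± 0.29, Per2 -0.33 ± 0.25, Cry1 0.20 ± 0.25 and Nr1d1 -0.40 ± 0.51, each with no call. A gene that does not pass the test is not shown to be equal in both groups. Upp2, a uridine phosphorylase with a daily rhythm in liver, had 5.93, 6.04 and 5.48 in PHx livers, against 8.38, 8.39 and 8.35 in sham livers, a difference of -2.56 ± 0.56 (limma adjusted p 0.0016). Rgs16, a regulator of G protein signalling that follows feeding in periportal hepatocytes, had 0.03, 0.72 and 0.25 in PHx livers, against 4.00, 4.31 and 3.62 in sham livers, a difference of -3.64 ± 0.83 (limma adjusted p 0.0025).

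Among markers of other liver cells, 1 macrophage gene stood out. Marco, a scavenger receptor, had 8.01, 8.26 and 8.28 in PHx livers, against 3.85, 3.82 and 6.12 in sham livers, a difference of 3.59 ± 0.70 (limma adjusted p 0.00055). It was the 1 of 14 macrophage genes called, 0 fell, and the median of the list was 0.07 as deposited and -0.11 after scaling. The Kupffer cell marker Clec4f had 7.45, 7.05 and 6.96 in PHx livers, against 7.47, 7.34 and 7.71 in sham livers (-0.35 ± 0.23, limma adjusted p 0.34). Neutrophil and monocyte genes showed 0 of 6 called and a summed linear value of 8.11 to 21.6 in PHx livers and 5.45 to 6.57 in sham livers. Their part in the acute phase and chemokine values was not tested.

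Stellate cell and matrix genes had 3 of 15 higher and 0 lower, against 11.8% of all genes called higher. The rises numbered 1 without PHx replicate 1 or 3 or sham replicate 1 or 3 and after scaling. Timp1, an inhibitor of metalloproteinases, had 2.30, 3.12 and 2.06 in PHx livers, against 0.12, 0.11 and 0.00 in sham livers, a difference of 2.41 ± 0.32 (limma adjusted p 3.4e-06). Of the sinusoidal endothelial list, 1 of 18 rose, Wnt9b, a Wnt ligand of the central vein, at 0.57 ± 0.12 (limma adjusted p 0.0013), and its level was below 1 in all 6 libraries. Inhbb, which encodes a subunit of activin B, rose by 1.47 ± 0.38 (limma adjusted p 0.0072). The erythroid markers Car1, Klf1 and Alas2 fell, 3 of 5 tested, while Hba-a1 averaged 9.00 ± 0.87 in PHx livers and 9.04 ± 0.48 in sham livers (SD, n = 3 each). Car1 had 0.07, 0.58 and 0.26 in PHx livers, against 1.97, 1.36 and 2.11 in sham livers, a difference of -1.51 ± 0.26 (limma adjusted p 0.00014). The Alas2 call was lost without any 1 library, at -0.91 to -0.81. Cholangiocyte markers showed 0 of 8 called. Of 11 pancreatic acinar genes, 10 were listed at 0 in all 6 libraries, and the other was Cela1, with 0 calls.

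**Figure D4:**
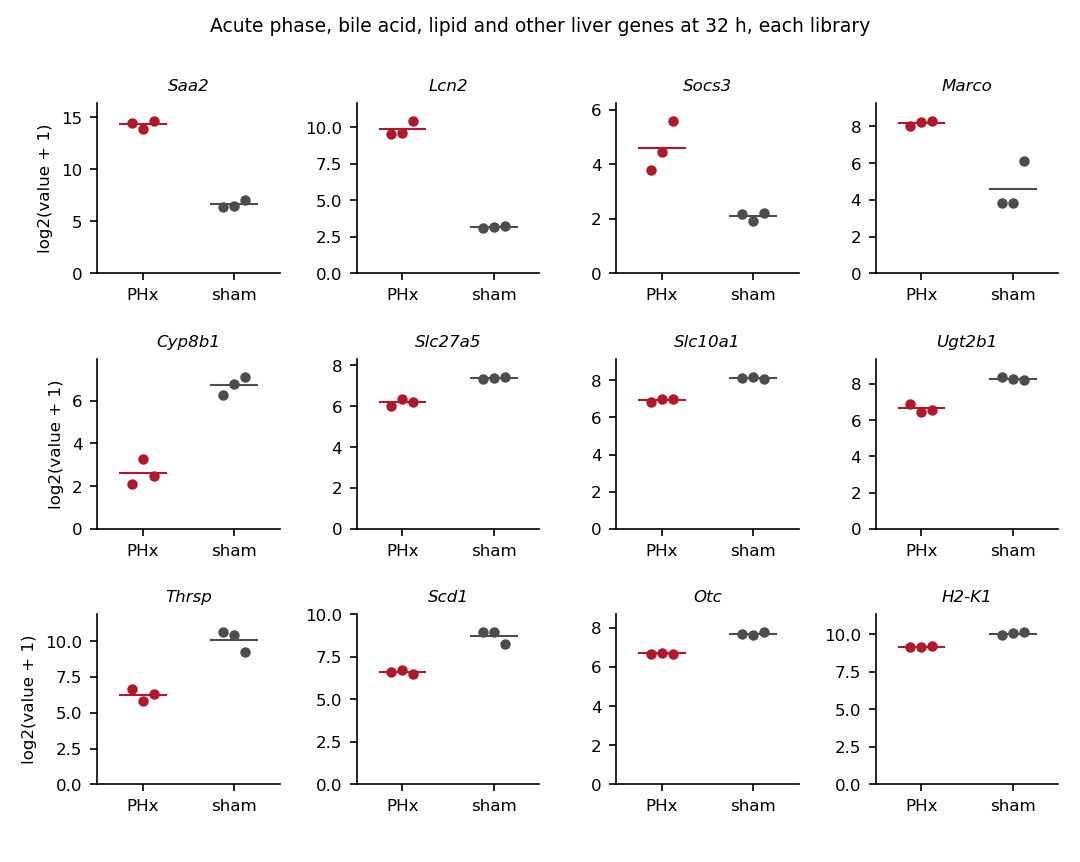
Values of 12 genes of the acute phase, macrophages, bile acids, lipids, conjugation, the urea cycle and MHC class I at 32 h, log2(value + 1) on the y axis of each panel, with 1 point per library (3 PHx left in red, 3 sham right in grey) and a line at the group mean. The PHx points of Saa2, Lcn2, Socs3 and Marco lie above all sham points, and those of the other 8 genes lie below all sham points.

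The 32 h values were set beside the earlier times of the same course, each against its own sham group. Ccnd1 was already higher at 8 h, by 1.35, and over 24, 28 and 32 h its differences were 2.83, 2.69 and 2.72. Mcm6 had differences of 1.71, 2.72, 2.69 and 3.64 over 20, 24, 28 and 32 h, each past the test. Ccnb1 first passed the test at 32 h, where its PHx mean was 3.83 ± 0.70, after means of 0.97 ± 0.73, 2.34 ± 0.15 and 2.65 ± 2.53 over 20, 24 and 28 h (SD, n = 3 each). Over 20, 24, 28 and 32 h the mitosis list had 0, 30, 7 and 35 genes called higher, and the replication list had 11, 24, 18 and 27. The part of PHx 28 h replicate 2 in the lower counts of 28 h was not tested. Saa2 was higher at every time, by 6.64 at 12 h to 9.41 at 8 h, and by 7.70 at 32 h. Thrsp was 0.98 higher at 4 h with no call and lower at each later time, by 2.75 at 28 h and 3.84 at 32 h. Cyp8b1 first passed the test at 16 h, at -3.01.

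**Figure D5:**
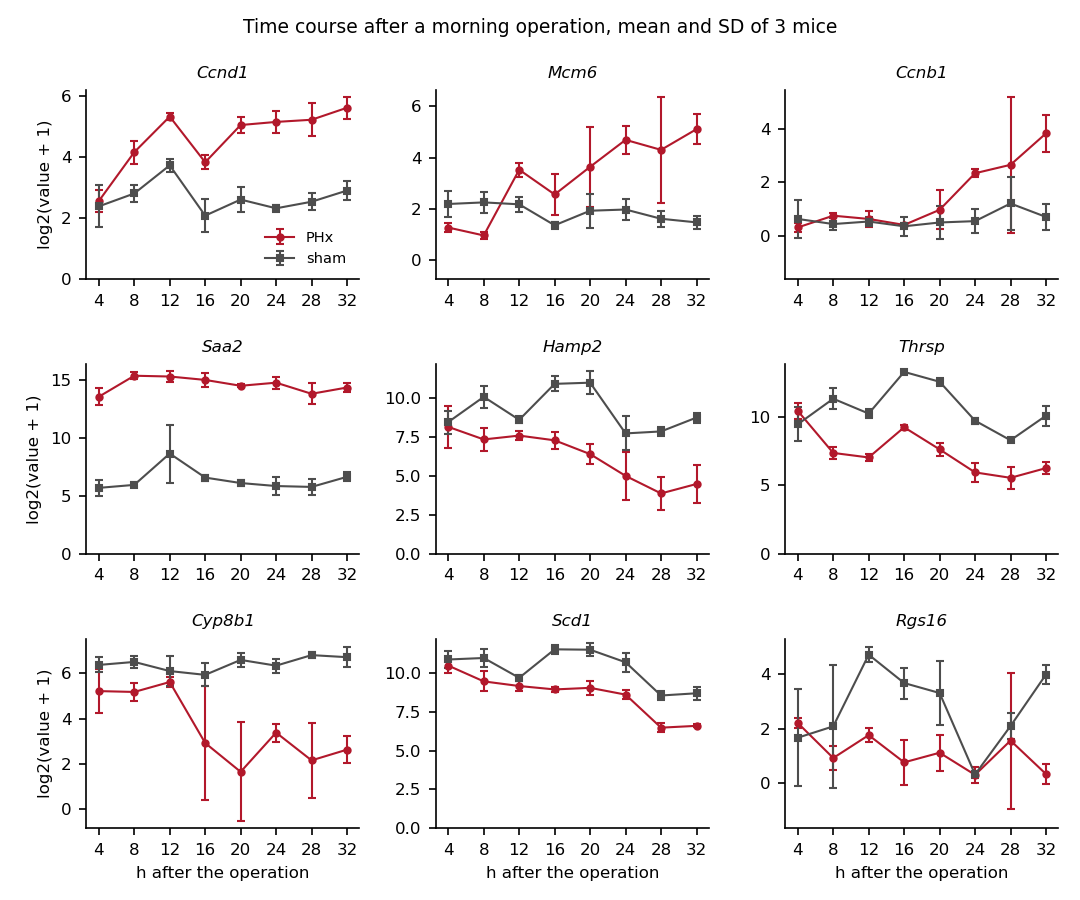
Mean and SD of 3 PHx mice (red circles) and 3 sham mice (grey squares) for 9 genes at 4 to 32 h after a morning operation, with log2(value + 1) on the y axis. Ccnb1 after PHx reaches 3.83 at 32 h with its widest error bar at 28 h, and Rgs16 in sham livers is 0.32 at 24 h and 3.98 at 32 h.

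The response at 32 h was tested against that at 28 h as a difference of differences. Of 12957 genes tested, 0 were called (0.00%), while 773 had an unadjusted p under 0.05, and the smallest adjusted p was 0.06. The fit of the 12 libraries of these times called 6. At 28 h itself 2659 genes were called (20.5%), 1935 higher (14.9%) and 724 lower (5.59%), and 1207 were called in the same direction at both times, which is 60.4% of the calls of 32 h and 45.4% of those of 28 h. Rgs16 fell by 3.64 at 32 h, while its 28 h difference was -0.53 ± 0.83 with no call. Nfil3 was 1.19 higher at 32 h, with 0.00 at 28 h. Neither of these differences between times passed the test after adjustment.

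Of the remaining largest changes, 4 concerned genes known by number only. Gm4956, annotated in GENCODE for GRCm38 as a transcribed pseudogene, had 0.15, 0.74 and 0.26 in PHx livers, against 3.77, 3.91 and 3.71 in sham livers, a difference of -3.41 ± 0.34 (limma adjusted p 9.8e-09). Gm31583, annotated as a long intergenic non-coding RNA, had 0.06, 0.16 and 0.19 in PHx livers, against 3.42, 2.89 and 3.35 in sham livers, a difference of -3.08 ± 0.29 (limma adjusted p 3.3e-09). Gm13775 fell by 3.18 ± 0.46 (limma adjusted p 1.1e-05). Gm10163, annotated as a processed pseudogene, had 5.15, 4.92 and 5.08 in PHx livers, against 0.00, 0.01 and 0.00 in sham livers, a difference of 5.05 ± 1.25 (limma adjusted p 0.0051). A processed pseudogene shares its sequence with a parent gene, so this value is uncertain.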

How the data were processed

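The deposited time course tables hold log2(value + 1) of an expression value rounded by the authors to 2 decimals, and its unit is not given in the file headers. The submitters' processing notes name fastp 0.20.0, HISAT2 2.1.0 and the builds mm8 and mm9 with no role, and the read counter is not given in the sources used here. Depth is therefore unknown, and summed linear values were 948972 to 983421 in PHx and 987402 to 1002152 in sham libraries of 32 h.

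The PHx and sham tables were joined on gene ID (14620 genes). Of these, 12957 genes whose value reached 1 in 3 or more of the 48 libraries of the morning course were kept. A linear model with 1 mean for each of 16 groups was fitted to the deposited log2 values in R 4.3.3 with limma 3.58.1. Its tests were two-sided with a mean-variance trend, and p-values were adjusted over all genes with Benjamini-Hochberg. The spread is thus shared over all times. The fit was tested on simulated data. A permutation test of 3 against 3 cannot go below 0.1.

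Members and the 50 gene lists were chosen with earlier results of these data known. Named genes are the 8 largest rises and falls among called genes whose higher group mean is at least 3 on the log2 scale and whose groups do not overlap, the 3 called genes of each list with the smallest adjusted p, and a fixed set, of which 1 gene is not reported here. Clec4f, Hba-a1, Hamp, Pttg1 and other list members were added to describe their lists. Genes were matched by symbol. Alternatives were median-of-ratios scaling, other pseudocounts, filters and sets of libraries, no trend, a replicate block, and leaving out each library. Figures were drawn with matplotlib 3.10.9.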

Additional observations from a re-analysis of the deposited data

How the results depend on the processing

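As deposited, 1998 genes were called at 32 h, 1532 higher and 466 lower. Median-of-ratios scaling gave 767 higher and 803 lower. Without 1 library of 32 h the calls numbered 1120 to 1604, the higher calls 817 to 1230 and the lower calls 299 to 374. The lowest total was without PHx replicate 1, followed by 1328 without sham replicate 3. The fit of the 12 libraries of 28 and 32 h called 1454, of which 1080 were higher and 374 lower. Without PHx 28 h replicate 2, a setting chosen after seeing the data, that fit called 2656, of which 1951 were higher and 705 lower. The causes were not tested.

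For the difference between 32 and 28 h, 0 genes were called as deposited. The 12 libraries called 6, of which 1 was higher and 5 lower, with or without PHx 28 h replicate 2. A pseudocount of 5, leaving out sham 4 h replicate 1 and a fit with no trend each called 1, which was lower. Leaving out 1 library of 28 or 32 h called 0 to 2, with 0 to 1 higher and 0 to 2 lower.

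Of 142 named genes that were called, 131 kept the call under scaling, 130 in the 6 libraries of 32 h, 101 in the 12 libraries and 109 in every fit with 1 library left out. Tk1, which was not called, had its sign reversed without PHx replicate 1, at -0.026, and was at 0.48 without PHx replicate 3.

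For same-numbered PHx and sham libraries of 32 h, the correlations of their deviations across genes were -0.03, -0.11 and 0.00. For unlike-numbered libraries of 32 h they ran from -0.07 to 0.10. A pairing by number was thus neither seen nor excluded. With a replicate block 2039 genes were called, 1568 higher and 471 lower, and 0 for the difference between times.

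The depth of the libraries is unknown, and no counting error is given for low values.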

Other observations

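The following genes were chosen after their values were seen. The 3 genes called in opposite directions at 32 and 28 h were Fmnl1, Gm10163 and Gm17088. Gm10163 had 5.15, 4.92 and 5.08 in PHx livers of 32 h, against 0.00, 0.01 and 0.00 in sham livers of 32 h. At 28 h it had 0.00, 0.00 and 3.07 in PHx livers, against 4.79, 4.44 and 4.92 in sham livers. Fmnl1, a formin of blood cells, had differences of -0.82 at 32 h and 0.81 at 28 h. For both, the difference between times missed the threshold in the fit of 48 libraries (limma adjusted p 0.11 for Gm10163 and 0.36 for Fmnl1).

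The fit of the 12 libraries of 28 and 32 h called the difference between times for Ccdc120, Gm10163, Gm10240, Gm11773, Gm13370 and Ttc23. Ccdc120 had 1.64, 1.52 and 1.39 in PHx livers of 32 h, against 0.20, 0.10 and 0.25 in sham livers of 32 h. At 28 h it had 3.12, 3.25 and 3.53 in PHx livers, against 0.00, 0.21 and 0.23 in sham livers, and the difference of the responses was -1.82 ± 0.19 (limma adjusted p 0.0079). Ttc23 had 4.58, 4.60 and 4.65 in PHx livers of 32 h, against 5.73, 5.80 and 5.65 in sham livers of 32 h. Its 6 values of 28 h lay between 4.71 and 4.98, and the difference of the responses was -1.10 ± 0.14 (limma adjusted p 0.03). Gm10240 and Gm13370 held identical values in all of these 12 libraries.

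The mitochondrial gene mt-Atp8 was listed at 14.00, 14.00 and 0.00 in PHx livers of 32 h, against 14.17, 13.67 and 13.95 in sham livers, and it was not called (limma adjusted p 0.42).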
